A study of Mus musculus with 2 samples.

Results

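Chemokines are small secreted proteins, some of them membrane-bound, that guide cells along gradients through G protein-coupled receptors on the cells that read them. The 8 genes described here are the fractalkine pair Cx3cl1 (ligand) and Cx3cr1 (receptor), the CC ligands Ccl2, Ccl3, Ccl4 and Ccl12, and the CXC ligands Cxcl12 and Cxcl14. They were chosen by name, as chemokines and a receptor of cells that reside in the brain, and are 8 of the 25120 genes with a column in at least 1 of the 2 deposited tables. All 8 have a column in both.

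The data are 2 single-cell RNA libraries of basolateral amygdala, an emotion-related nucleus, taken from adult mice of strain C57BL/6. One group received vehicle and the other the hormone FGF21 at 1 mg/kg, both once daily over 3 days. Each library pooled the tissue of 3 mice, so each group is 1 library. The pools were digested with pronase in the presence of actinomycin D, a blocker of transcription, and living cells were sorted for the red fluorescent protein tdTomato. The sample titles name KLB, the co-receptor of FGF21, but the labels do not say which promoter or cell type drives tdTomato.

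With 1 library for each treatment there is no replicate. No value below has a test or a p-value, every interval is a 95% interval that covers counting error only, and an effect of FGF21 and a difference between the libraries cannot be told apart.

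Fractalkine is made as a protein anchored in the membrane and can be cut loose by the sheddases ADAM10 and ADAM17, and its receptor CX3CR1 is the best known chemokine receptor of microglia. CCL3 and CCL4 attract monocytes and T cells, and CCL3 signals through CCR1 among other receptors. CCL2 and the mouse protein CCL12 act on CCR2, the receptor of inflammatory monocytes. CXCL12 signals through CXCR4 and is scavenged by ACKR3, while the receptor of CXCL14 is not settled.

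The vehicle library held 2925 cell barcodes with 11130580 transcript molecules, counted as unique molecular identifiers (UMIs), and the FGF21 library held 2455 barcodes with 14585503. After filters on depth, mitochondrial share and doublets, 2337 vehicle and 1935 FGF21 cells were used, with a median of 4232 and 6838 UMIs. The libraries had 12 cell indices in common. Cells were clustered without any chemokine or chemokine receptor gene, and clusters were named from fixed marker lists as microglia-like, border macrophage-like (the macrophages of vessels and meninges), oligodendrocyte precursor-like, astrocyte-like, mural-like (pericytes and smooth muscle) and so on. Since the names came from these markers, their presence in a class is not a separate check of its name. All were detected in their class, except that 1 of 8 fibroblast markers was at 0 in the FGF21 library. In vehicle, 8 of 10 mural and 7 of 8 fibroblast markers were each in at least 10% of the cells of their class. The deeper FGF21 library makes a UMI more likely in any cell, so shares of cells are also given after every cell was thinned to 2000 UMIs. Markers of a class seen in other classes gave a background of free RNA equal to 28.2% of a gene's library-wide level in the vehicle library (21.1% to 43.3% over 16 pairs of marker list and class) and 31.3% in the FGF21 library (24.8% to 40.9%). Levels are UMIs of a gene per 1000000 UMIs of a class (CPM).

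On mouse build GRCm38 with GENCODE vM21, 4 of the 8 genes lie on chromosome 11. Ccl3 (chr11:83647844-83649355, minus strand) and Ccl4 (chr11:83662584-83664683, plus strand) are neighbours on opposite strands, 13228 bases apart with 0 annotated genes between them. Ccl2 (chr11:82035571-82037453) and Ccl12 (chr11:82101845-82103400), both on the plus strand, are 64.4 kb apart with 2 protein-coding genes between them. The other genes are Cx3cl1 (chr8:94772009-94782427, plus strand), Cx3cr1 (chr9:119901616-120069879, minus strand), Cxcl12 (chr6:117168535-117181367, plus strand) and Cxcl14 (chr13:56288643-56296551, minus strand). Exons of Cx3cr1 overlap 1 gene, Gm33858, on the opposite strand, and whether counting used strand is not given in the sources used here.

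The 250 bases upstream of the RefSeq start are shown for 3 ligands of myeloid and vascular cells. Most Ccl3 and Ccl12 UMIs lay in microglia-like cells, Ccl12 had its highest level in border macrophage-like cells, and Cxcl12 had its highest level in endothelial-like cells. They come from RefSeq on GRCm38.p6, whose promoter table held 6 of the 8 genes (not Ccl2 and Ccl4), and are written 5′ to 3′ on the gene's strand. Capitals mark matches to the motifs named after them.
Ccl3, chr11:83649379-83649628, minus strand: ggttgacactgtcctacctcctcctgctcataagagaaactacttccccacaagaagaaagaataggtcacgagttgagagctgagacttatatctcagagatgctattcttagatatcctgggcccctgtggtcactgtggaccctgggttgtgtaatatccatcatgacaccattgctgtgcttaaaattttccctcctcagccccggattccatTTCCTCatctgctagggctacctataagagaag
Ccl12, chr11:82101595-82101844, plus strand: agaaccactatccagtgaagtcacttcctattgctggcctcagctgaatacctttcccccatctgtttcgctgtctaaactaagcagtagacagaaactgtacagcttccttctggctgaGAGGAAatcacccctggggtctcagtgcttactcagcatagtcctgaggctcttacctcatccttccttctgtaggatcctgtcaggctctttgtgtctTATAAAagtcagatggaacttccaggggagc
Cxcl12, chr6:117168285-117168534, plus strand: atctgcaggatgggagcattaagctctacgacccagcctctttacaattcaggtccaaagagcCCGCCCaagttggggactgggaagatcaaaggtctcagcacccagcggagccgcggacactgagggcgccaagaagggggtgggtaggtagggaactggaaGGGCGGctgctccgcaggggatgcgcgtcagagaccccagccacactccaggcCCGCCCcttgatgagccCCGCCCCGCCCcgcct

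Motifs were searched on both strands. The Ccl3 window holds 1 match to the PU.1 core GAGGAA, in reverse, 33 to 28 bases before the RefSeq start. For Ccl3 that start lies upstream of the GENCODE start given above, so distances to the latter are larger. The Ccl12 window holds GAGGAA 130 to 125 bases and the TATA box TATAAA 31 to 26 bases before the start. The Cxcl12 window, with a GC content of 64.4% against 46.8% for Ccl3 and 48.4% for Ccl12, holds 5 matches to the GC box GGGCGG, of which the 2 nearest the start share 1 base. Of 32851 promoter windows of this length, 23.3% hold GAGGAA, 12.4% TATAAA and 32.7% GGGCGG. Over the 6 genes in the table, GAGGAA was in 3 windows (Cx3cl1, Ccl12, Ccl3), TATAAA in 2 (Cx3cl1, Ccl12) and GGGCGG in 2 (Cxcl12, Cx3cl1). The kappa-B site GGNNTTTCC, the AP-1 site TGANTCA, the cAMP response element TGACGTCA and the E-box CACGTG were in 0 of 6, and in 4.93%, 6.75%, 1.55% and 6.02% of all windows.

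The receptor Cx3cr1 was a microglial transcript in both libraries. Microglia-like cells held 43979 vehicle and 38531 FGF21 UMIs, a level of 7574 CPM (7504 to 7646) and 6972 CPM (6903 to 7042). A UMI was found in 1405 of 1405 vehicle and 885 of 887 FGF21 cells, with a median of 30 and 43 UMIs a cell and a highest count of 85 and 114. Across cells the 10th and 90th percentiles were 4819 and 10426 CPM in vehicle and 4607 and 9691 CPM in FGF21. The level was graded, and only 2 FGF21 cells were without a UMI.

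Border macrophage-like cells came next among the named classes, with 452 vehicle and 303 FGF21 UMIs over 52 and 23 cells, or 3147 and 2973 CPM. Every other class lay between 727 and 2187 CPM (vehicle) and between 1166 and 2013 CPM (FGF21), near the free-RNA background for this gene of 1368 and 1134 CPM. Thus 99.5% of vehicle oligodendrocyte precursor-like cells (median 6702.5 UMIs) carried a Cx3cr1 UMI at 1502 CPM, and the background accounted for 91.1% of those UMIs. The lower bound lay above background in 6 and 8 of 11 named classes, and how much of that excess is expression was not tested.

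The fractalkine ligand Cx3cl1 was found in oligodendrocyte precursor-like cells and endothelial-like cells, the only named classes of 11 whose lower bound lay above background in both libraries. Precursor-like cells held 100 of the vehicle and 223 of the FGF21 UMIs, 73.0% and 77.2% of all Cx3cl1 UMIs in used cells. Their level was 34.7 CPM (28.2 to 42.2) and 38.6 CPM (33.7 to 44.0), with background at 10.5% and 16.6% of the UMIs. The transcript was sparse, with a UMI in 73 of 408 and 163 of 615 cells (17.9% and 26.5%, or 6.20% and 7.20% when thinned) and at most 4 in a cell. In microglia-like cells, which carry the receptor, the same shares were 1.71% and 2.93% at median depths of 4181 and 6018 UMIs, and background accounted for 84.7% and 137% of the UMIs.

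The precursor-like class held 3 clusters. Cx3cl1 was lowest in the cluster with 38 cells in each library, at 20.5 CPM (9.35 to 38.8, 9 UMIs) and 8.89 CPM (3.26 to 19.3, 6 UMIs), though its interval overlapped those of both other clusters in vehicle and of 1 of them in FGF21. The cluster that held most vehicle precursor-like cells had it at 38.5 and 22.6 CPM, and the cluster that held most FGF21 cells had it at 22.3 CPM (4 vehicle UMIs) and 44.0 CPM (209 FGF21 UMIs). Endothelial-like cells reached 49.2 CPM (10.1 to 144) and 117 CPM (42.9 to 255) on only 3 and 6 UMIs, in 2 of 33 and 2 of 16 cells. An unnamed cluster led by the neuronal genes Penk, Scg2, Gad2 and Syt1 held 9 UMIs in 3 of 19 FGF21 cells and 0 in the vehicle library. Of the sheddases, Adam10 was at 283 and 212 CPM in microglia-like and 129 and 95.3 CPM in precursor-like cells, and Adam17 at 284 and 237 CPM against 122 and 125 CPM. Receptor and sheddase transcripts were thus higher in the microglia-like class, and the ligand in the precursor-like class.

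**Figure D1:**
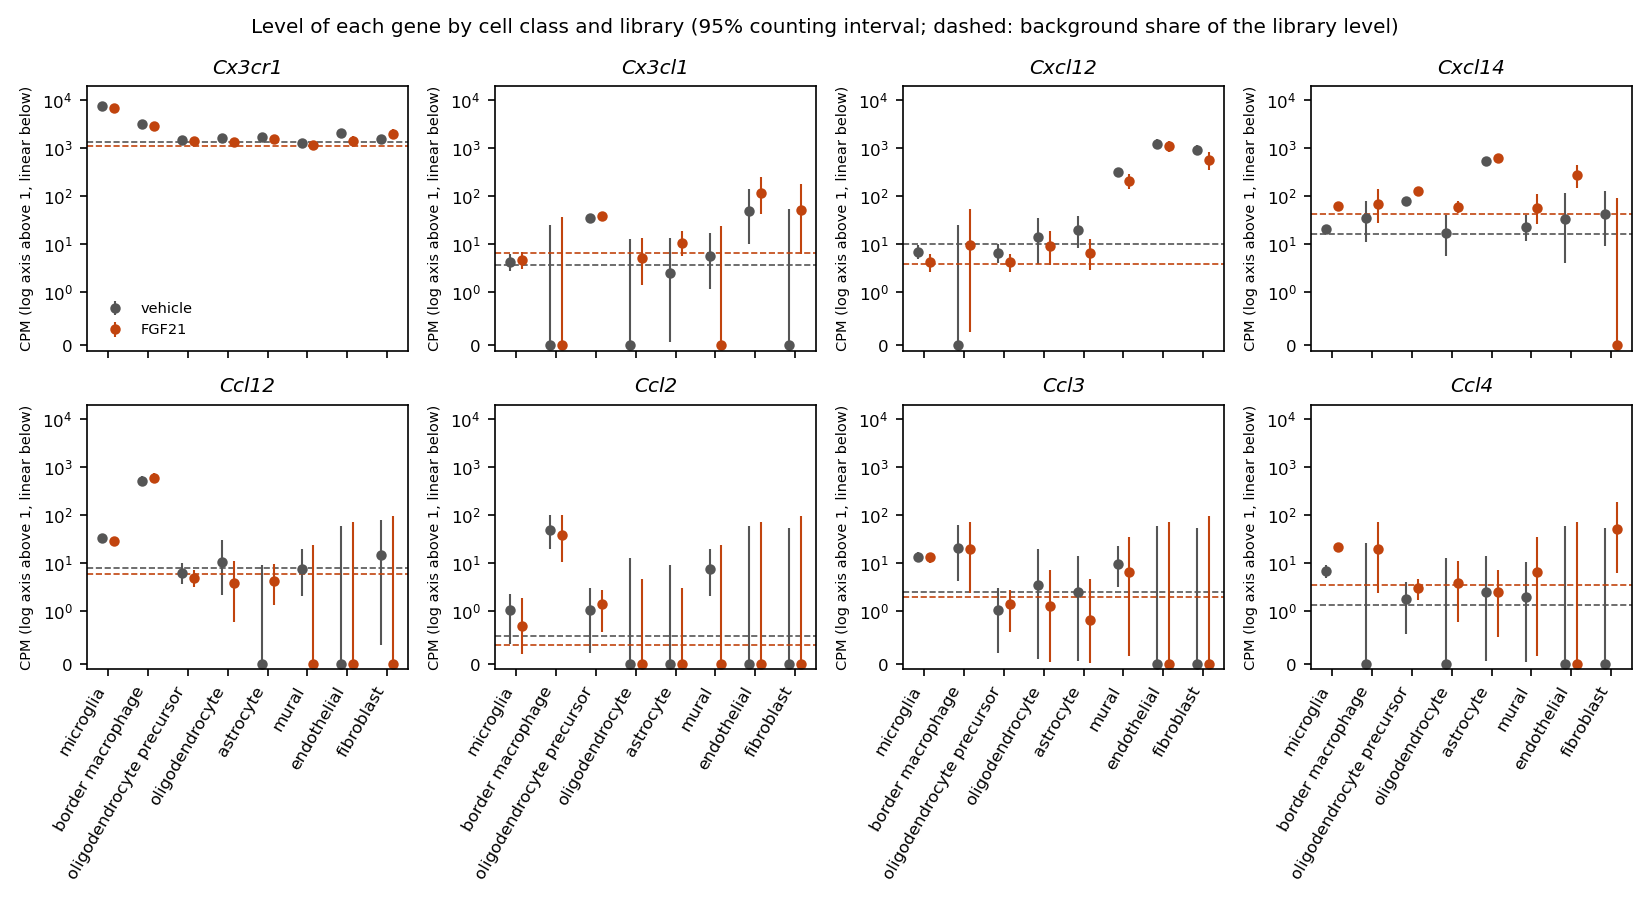
Level of each gene (CPM, log axis above 1 and linear below) in 8 cell classes of the vehicle (grey) and FGF21 (orange) library. Points are class levels, bars the 95% counting interval and dashed lines the background share of the library level. Cx3cr1 is highest in microglia-like, Cxcl12 in endothelial-like, Cxcl14 in astrocyte-like and Ccl12 in border macrophage-like cells of both libraries.

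Cxcl12, the ligand that retains CXCR4-bearing cells near vessels and stroma, was a vascular and stromal transcript. It was above background in endothelial-like, fibroblast-like and mural-like cells of both libraries and in no other of the 11 named classes. Endothelial-like cells held 76 and 56 UMIs, or 1246 CPM (982 to 1559) and 1092 CPM (825 to 1418), in 16 of 33 and 8 of 16 cells. Fibroblast-like cells held 65 and 22 UMIs, or 938 CPM (724 to 1196) and 561 CPM (351 to 849), in 16 of 19 and 5 of 9 cells. The intervals of these 2 classes overlapped in the vehicle library and also, narrowly, in the FGF21 library.

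Mural-like cells were lower, at 316 CPM (270 to 368) and 204 CPM (140 to 288). A Cxcl12 UMI was found in 87 of 181 (48.1%) and 14 of 40 (35%) mural-like cells (median depth 2776 and 3742 UMIs), against 2.78% and 2.59% of microglia-like cells, where background accounted for 146% and 92.9% of the UMIs. No class of these vascular cells had 50 cells in each library, so no ratio between libraries is given for them.

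The 2 receptors of Cxcl12 differed in their leading class. The scavenger Ackr3 was highest among named classes in the mural-like cells themselves, at 465 CPM (409 to 528) and 306 CPM (226 to 406), with a UMI in 90 of 181 and 15 of 40 cells. Cxcl12 and Ackr3 were found together in 48 vehicle mural-like cells against 43.3 from the product of their shares, and in 7 FGF21 cells against 5.25. Ackr3 was also at 87.5 and 94.2 CPM in oligodendrocyte precursor-like cells, in 166 of 408 and 319 of 615 of them, with background at 16.8% and 15.5%. Cxcr4, the signalling receptor, was rare: 3 and 6 UMIs in the 4 and 6 T or NK cell-like cells (181.9 and 199.9 CPM) and 12 and 11 UMIs in border macrophage-like cells (83.6 and 108 CPM). In precursor-like cells Cxcr4 was at 2.43 and 6.58 CPM, on 7 and 38 UMIs, with background at 49.3% and 25.3%. Whether single cells carried both receptors was not tested.

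Cxcl14 had its highest level in astrocyte-like cells. They held 219 vehicle and 765 FGF21 UMIs, or 538 CPM (469 to 614) and 635 CPM (590 to 681), with background at 3.01% and 6.86%. These were 36.0% and 39.1% of all Cxcl14 UMIs in used cells, and oligodendrocyte precursor-like cells held a similar 37.2% and 37.9%. A UMI was found in 68 of 99 and 161 of 192 cells, with a median of 1 and 3 UMIs and a highest count of 12 and 20. Thinned to 2000 UMIs the shares were 59.7% and 62.8%, against 68.7% and 83.9% before thinning at median depths of 4194 and 6115 UMIs.

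Oligodendrocyte precursor-like cells also carried Cxcl14, at 78.5 CPM (68.6 to 89.4) and 128.5 CPM (119 to 138), with a UMI in 147 of 408 and 379 of 615 cells and background at 20.6% and 33.9%. In microglia-like cells the level was 21.2 and 62.1 CPM, with a UMI in 8.26% and 30.4% of cells, and most of it, 76.4% and 70.2%, was accounted for by background. Other classes passed background in 1 library only. These were endothelial-like cells in FGF21 (273 CPM on 14 UMIs, 11 in 1 cell), oligodendrocyte-like cells in FGF21 (60.4 CPM) and erythroid-like cells in vehicle (52.8 CPM on 5 UMIs). Cxcl14 and Cx3cl1 were found together in 26 of 408 vehicle precursor-like cells against 26.3 from the product of their shares, and in 116 of 615 FGF21 cells against 100.5.

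Ccl12 had its highest level in border macrophage-like cells, at 515 CPM (405 to 647) on 74 vehicle UMIs and 599 CPM (458 to 769) on 61 FGF21 UMIs. With all genes allowed in the clustering, the class had 40 and 13 cells and Ccl12 was at 649 and 336 CPM, so the order of the libraries turned, and at Leiden resolution 0.5 the class was not named. The UMIs were unevenly held: 16 of 52 and 8 of 23 cells had one, and single cells held up to 18 and 28. Microglia-like cells held 65.8% and 62.2% of all Ccl12 UMIs in used cells and border macrophage-like cells 25.1% and 23.6%. By level microglia-like cells were lower, at 33.4 CPM (28.9 to 38.5) and 29.1 CPM (24.8 to 34.0), yet above background, which was 23.5% and 19.8% of their UMIs. A Ccl12 UMI was found in 142 of 1405 (10.1%) and 117 of 887 (13.2%) microglia-like cells, against 4.17% and 4.55% of the deeper precursor-like cells. Thinned, the microglia-like shares were 6.11% and 5.20% and the precursor-like ones 1.49% and 1.80%.

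The border macrophage-like cluster was mixed, with Mrc1, F13a1 and Lyve1 (border macrophages), S100a8 and S100a9 (neutrophils) and H2-Aa (antigen presentation) among its leading genes. Cells in it with a UMI of the mannose receptor Mrc1, 38 vehicle and 15 FGF21, held 59 of 74 and 42 of 61 Ccl12 UMIs. This split, and the one that follows, were chosen after the values were seen. The remaining 15 and 19 Ccl12 UMIs were all held by 3 cells in each library that had 0 UMIs of Mrc1 and of the macrophage chemokine Pf4. Over those cells together Cx3cr1 was at 6607 and 6017 CPM, near the microglia-like level, against 2114 and 2036 CPM in the 13 and 5 cells with both Ccl12 and Mrc1. Singly, those cells were at 6009, 6521 and 7547 CPM in vehicle and at 5322, 11043 and 3577 CPM in FGF21. The last value was close to the 3523 and 3506 CPM of FGF21 cells with both Ccl12 and Mrc1.

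The same 3 and 3 cells were high in a list of 12 interferon response genes such as Ifit3 and Isg15. The list summed to 83 and 88 UMIs, or 5273 CPM (4200 to 6537) and 3782 CPM (3033 to 4660), and 12 of 12 genes were detected in each library. Single cells had UMIs of 9, 9 and 9 of the genes in vehicle and of 8, 11 and 10 in FGF21. In cells with both Ccl12 and Mrc1 the list was at 959 and 993 CPM. Singly, the 3 FGF21 cells without Mrc1 were at 3346, 7088 and 2165 CPM. One FGF21 cell with Ccl12 and Mrc1 was close to the lowest of these, at 2115 CPM with UMIs of 4 of the genes. In vehicle the 3 cells did not stand apart from all others. One cell with 1 Mrc1 UMI, Cx3cr1 at 8299 CPM and 0 Ccl12 UMIs had UMIs of 8 of the genes and the list at 4742 CPM, and 3 more cells with 0 Ccl12 UMIs, with 3 of the genes each, were at 4000 to 5040 CPM.

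In microglia-like cells, the interferon list was compared across cells grouped by their Ccl12 UMIs. Cells with 0 Ccl12 UMIs had the list at 158 and 154 CPM, and cells with 1 UMI at 185 (148 to 228) and 195 (161 to 234) CPM. Cells with 2 UMIs had it at 125 (66.5 to 213) and 181 (120 to 262) CPM. Cells with at least 3 Ccl12 UMIs had it at 503 CPM (334 to 727) in 13 vehicle cells, 1 of which held 17 of the 28 list UMIs. In 8 FGF21 cells it was at 73.3 CPM (20.0 to 188) on 4 UMIs, an interval that holds the level of cells without Ccl12.

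**Figure D2:**
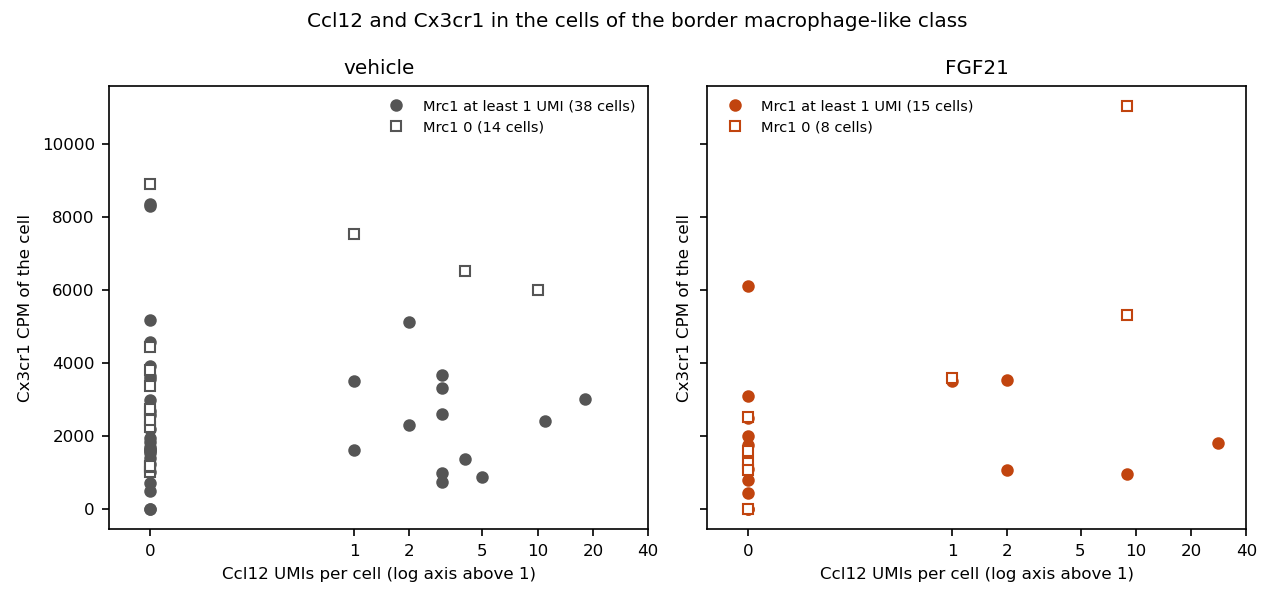
Ccl12 UMIs (log axis above 1) and Cx3cr1 level (CPM) of each border macrophage-like cell in the vehicle (left) and FGF21 (right) library, with filled points for cells with an Mrc1 UMI and open squares for cells without. The 3 open squares with Ccl12 in each library have a joint Cx3cr1 level of 6607 and 6017 CPM.

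Ccl2, the main attractant of CCR2-bearing monocytes, was close to the limit of detection, with 20 vehicle and 16 FGF21 UMIs in all used cells. Border macrophage-like cells held 7 and 4 of them, in 4 of 52 and 2 of 23 cells, or 48.7 CPM (19.6 to 100.4) and 39.2 CPM (10.7 to 100.5). All 4 and both of the 2 cells also had Ccl12 and Mrc1, and 3 of 4 and 2 of 2 had Ccl7, the related monocyte attractant of the same gene cluster. Ccl7 itself was found in 7 and 3 border macrophage-like cells, of which 6 and 3 had Ccl12. One vehicle mural-like cell held 4 Ccl2 UMIs. The 1405 and 887 microglia-like cells held 6 and 4 Ccl2 UMIs, and the 408 and 615 precursor-like cells 3 and 8.

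Ccl3 and Ccl4, attractants of monocytes and T cells, were rare, and most of their UMIs lay in microglia-like cells. Ccl3 had 79 vehicle and 72 FGF21 UMIs in microglia-like cells, or 13.6 CPM (10.8 to 17.0) and 13.0 CPM (10.2 to 16.4), in 51 (3.63%) and 30 (3.38%) cells. Ccl4 had 39 and 121 UMIs, or 6.72 CPM (4.78 to 9.18) and 21.9 CPM (18.2 to 26.2), in 21 (1.49%) and 48 (5.41%) cells. Background accounted for 14.8% to 19.8% of these UMIs. In the precursor-like cells, which should lack both and were deeper, Ccl3 was in 0.735% and 1.30% of cells and Ccl4 in 1.23% and 2.76%, never more than 1 UMI a cell. Thinned to 2000 UMIs, Ccl3 was in 2.38% (1.64% to 3.35%) and 1.5% (0.802% to 2.55%) of microglia-like cells, and Ccl4 in 0.894% (0.463% to 1.56%) and 1.5% (0.802% to 2.55%). The thinned intervals overlapped for each gene. In border macrophage-like cells Ccl3 was at 20.9 CPM (4.31 to 61.0) and 19.6 CPM (2.38 to 70.9) on 3 and 2 UMIs, above background in both libraries and with intervals that hold the microglia-like level. Ccl4 had 0 and 2 UMIs there. Other classes passed background in 1 library only, mural-like cells for Ccl3 (vehicle) and choroid plexus-like (vehicle), T or NK cell-like and fibroblast-like cells (FGF21) for Ccl4.

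Whether the ligands mark a subset was read from single cells. A cell with 1 UMI was common and a cell with many was not: the sum of both genes was 0 in 1337 and 817 microglia-like cells, 1 in 46 and 50, 2 in 14 and 11, 3 to 4 in 6 and 3, and 5 or more in 2 and 6. Cells with at least 5 UMIs and at least 1 of each gene, called rich here, numbered 2 of 1405 (0.142%, 0.0172% to 0.513%) in vehicle and 5 of 887 (0.564%, 0.183% to 1.31%) in FGF21. They held 24 of 118 (20.3%) and 102 of 193 (52.8%) of all Ccl3 and Ccl4 UMIs of the class.

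The vehicle rich cells had 6 Ccl3 with 7 Ccl4 UMIs and 6 with 5. The FGF21 rich cells had 18 with 30, 7 with 13, 7 with 10, 2 with 8 and 1 with 6. One further FGF21 cell had 8 Ccl4 UMIs and 0 of Ccl3, just outside the limit. The largest count was thus in 1 FGF21 cell, with 25% of the Ccl3 UMIs of that class.

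Both ligands were found together in 4 vehicle cells against 0.762 from the product of their shares, and in 8 FGF21 cells against 1.62. After thinning the counts were 2 against 0.286 and 4 against 0.195. Outside the rich cells they were together in 2 cells against 0.664 and in 3 against 1.22, and 47 and 22 cells had Ccl3 alone and 17 and 40 Ccl4 alone. Over thinned cells the Pearson correlation of the counts was 0.19 (1343 cells) and 0.62 (866 cells), a description of cells that share a library. In variance over mean of thinned counts, Ccl4 ranked 11 and Ccl3 17 of 9315 genes in FGF21 microglia-like cells (2.97 and 2.12, median gene 1.08). Ccl3 ranked 551 of 10141 in vehicle (1.38, median 1.17), and Ccl4 had too few thinned UMIs to be ranked there. A small rich group was therefore seen in both libraries beside a larger number of cells with a single UMI. It is a range cut from a count, with 66 and 65 cells between rich and free of both, and not a cell type.

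**Figure D3:**
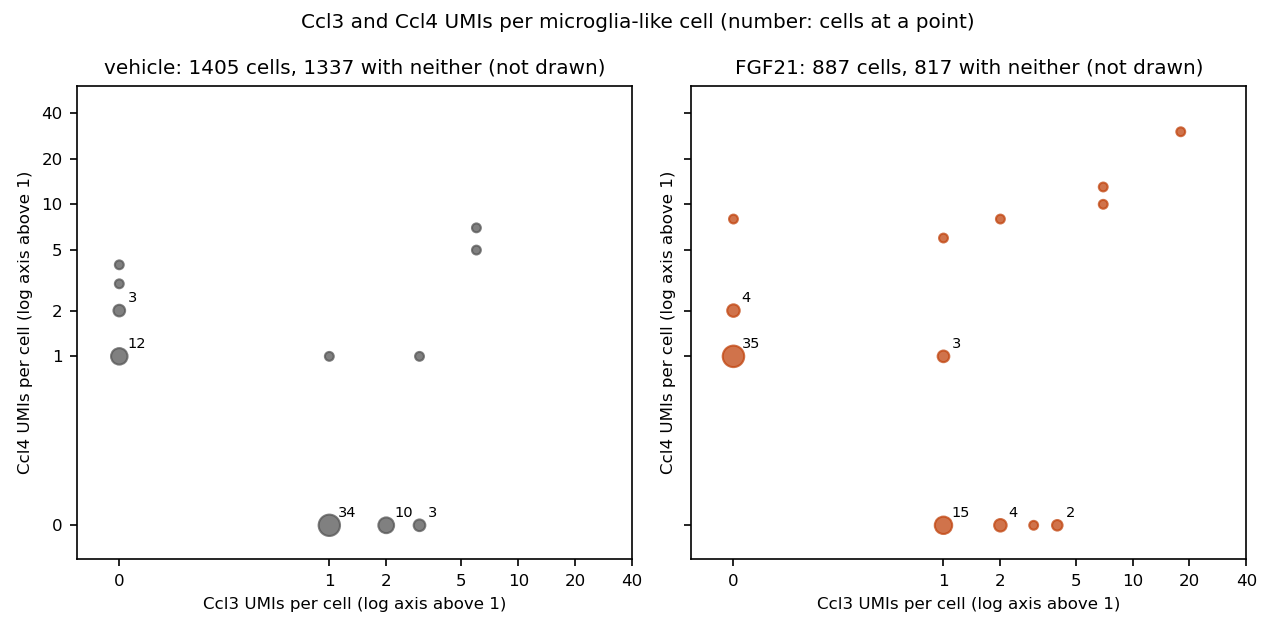
Ccl3 and Ccl4 UMIs of each microglia-like cell in the vehicle (left) and FGF21 (right) library, both axes logarithmic above 1. Point area grows with the number of cells, printed where above 1, and the 1337 and 817 cells with neither gene are not drawn. The 2 vehicle rich cells have 6 Ccl3 with 7 Ccl4 UMIs and 6 with 5. The 5 FGF21 rich cells have 18 with 30, 7 with 13, 7 with 10, 2 with 8 and 1 with 6.

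Rich cells came from clusters named by microglia markers. Those markers summed to 35314 and 31339 CPM in the vehicle rich cells, against 37462 CPM in free cells. In the FGF21 rich cells they summed to 22801, 25066, 17408, 22953 and 28624 CPM, against 29776 CPM. Mrc1 and every neutrophil and monocyte marker on the fixed lists were at 0 in 7 of 7. Free cells had the neutrophil list at only 9.98 and 5.99 CPM and the monocyte list at 5.26 and 3.59 CPM, so these zeros say little. Border macrophage markers summed to 303 and 1018 CPM in the vehicle and 376, 0, 164, 336 and 734 CPM in the FGF21 rich cells, against 648 and 512 CPM in free cells. Their homeostatic genes were uneven. Cx3cr1 was at 8184 and 5698 CPM in vehicle rich cells and at 5888, 4293, 3120, 3195 and 4404 CPM in the FGF21 ones. Cells free of both ligands had a median of 7469 and 6867 CPM and a 10th percentile of 4810 and 4651 CPM, so 0 of 2 vehicle and 4 of 5 FGF21 rich cells lay under that percentile. Summed, the Cx3cr1 ratio of rich to free cells was 0.939 (0.747 to 1.17) in vehicle and 0.588 (0.503 to 0.683) in FGF21.

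P2ry12, the purine receptor of resting microglia, was at 5608 and 2442 CPM (vehicle) and 2756, 138, 164, 673 and 3058 CPM (FGF21) in the rich cells, against free medians of 4915 and 3629 CPM and 10th percentiles of 2622 and 1783 CPM. In 3 FGF21 cells it was far under that limit. Tmem119 was at 1364 and 1628 CPM and at 376, 831, 164, 589 and 734 CPM, against free medians of 1639 and 1376 CPM. Over the list of 14 homeostatic genes, 1 (Slc2a5) was lower and 0 higher by the rule given next. That rule called 0.232% of all genes tested lower and 2.37% higher. The list's median ratio was 0.909 and 0.612. Rich cells were deeper (median 5756 and 7982 UMIs against 4175 and 5953), and in FGF21 had more mitochondrial UMIs (7.89% against 5.40%). The part of depth and of RNA quality in these values was not tested.

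**Figure D4:**
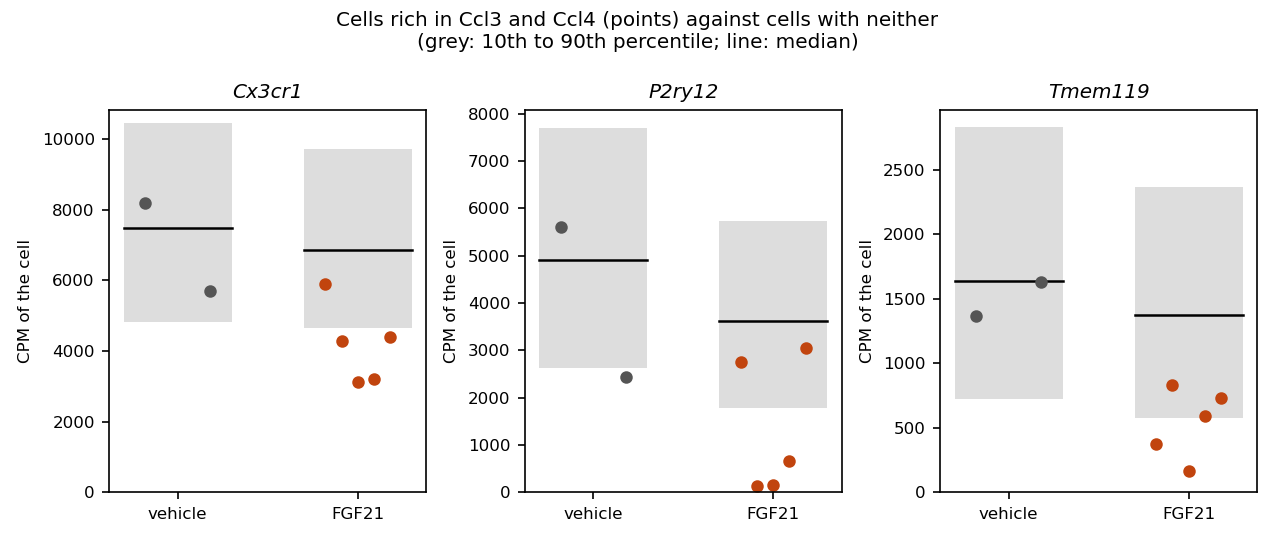
Level (CPM) of Cx3cr1, P2ry12 and Tmem119 in each cell rich in Ccl3 and Ccl4 (points, 2 vehicle and 5 FGF21) against microglia-like cells with neither ligand (grey bars, 10th to 90th percentile, line at the median). For Cx3cr1, 4 of 5 FGF21 points and 0 of 2 vehicle points lie under the grey bar.

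Rich and free cells were compared over 11193 genes with at least 20 UMIs in each library, calling a gene apart when it was at least 2-fold higher, or lower, in both. A higher call also needed at least 1 UMI in the rich cells of each library, and a gene at 0 there was set to 3 UMIs. By this rule 265 genes (2.37%) were higher and 26 (0.232%) lower. With so few rich cells the rule itself favours higher calls for sparse genes, so these counts cannot be set against each other. With cells thinned to 2000 UMIs 252 genes were higher, of which 64 were among the 265, and 9 lower, of which 2 were among the 26. The 2 vehicle rich cells are the limit: 1 UMI in them is 86.9 CPM, and of the 265 genes only 53 had at least 3 UMIs in the rich cells of each library, a stricter rule chosen after the values were seen. With genes at 0 in the rich cells set to a floor of 3 UMIs, the median ratio of all genes tested was 6.91 in vehicle and 1.68 in FGF21, which the floor sets for sparse genes.

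The 10 highest genes included Egr1, an early transcription factor of stimulated cells, whose 9 vehicle and 26 FGF21 UMIs came from 1 cell in each library. Atf3, a stress-induced transcription factor, had 3 and 6 UMIs in 2 and 3 rich cells, with ratios of 31.9 (6.35 to 99.5) and 31.6 (10.5 to 79.8). Plaur, the urokinase receptor, had 3 and 8 UMIs in 1 and 4 cells. Rftn1, B4galt2, Grik1, Glce, 2900093K20Rik and Cdkn1a, also among the 10, rested on 1 or 2 vehicle UMIs each. The 6 lowest genes, Camk1, Rbm26, Pag1, Cflar, Slc25a37 and Tmem173, rested on 1 or 2 vehicle UMIs as well.

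Of the genes with UMIs in all 7 rich cells, 4 are given here, chosen after the values were seen. Cd83, a surface protein of activated myeloid cells, had 4 and 16 UMIs, with ratios of 6.43 (1.74 to 16.6) and 7.51 (4.23 to 12.4). Ccl6, a constitutive macrophage chemokine, had 15 and 16 UMIs, with ratios of 10.2 (5.67 to 16.9) and 3.29 (1.87 to 5.39). Of its 15 vehicle UMIs, 12 were in 1 cell and 3 in the other. Cd9, a tetraspanin, had 20 and 52 UMIs, with ratios of 3.70 (2.25 to 5.72) and 2.38 (1.77 to 3.13). Hsp90aa1, a chaperone, had ratios of 3.34 (1.82 to 5.61) and 2.61 (1.79 to 3.68).

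The libraries' rich cells differed in other genes. Csf1, the ligand of the main growth factor receptor of microglia, had 4 and 5 UMIs in the vehicle rich cells, a ratio of 47.4 (21.0 to 93.9), and 1 UMI over the 5 FGF21 cells, a ratio of 1.01 (0.0253 to 5.73). Lpl, a lipase of lipid-laden microglia, had 0 UMIs in vehicle and 0, 7, 5, 1 and 1 in FGF21, a ratio of 13.7 (7.26 to 23.8). Cd63, a lysosomal tetraspanin, had 0 and 2 UMIs in vehicle and 0, 14, 10, 26 and 4 in FGF21. Ccl9 had 0 UMIs in the vehicle rich cells and 10, 4, 6, 2 and 0 in FGF21, a ratio of 4.52 (2.81 to 6.91) there. These genes were chosen after the values were seen, and 2 vehicle cells cannot show how far vehicle rich cells vary.

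Of the fixed lists, immediate early genes had 4 of 16 tested genes higher (Atf3, Egr1, Fosl2, Zfp36) and 0 lower. Of all genes tested, 2.37% were higher and 0.232% lower. The Egr1 UMIs came from 1 cell in each library, and Zfp36 had ratios of 2.20 (0.713 to 5.15) and 2.46 (1.30 to 4.23). The list's summed level was 2867 and 3893 CPM in rich and 1686 and 1493 CPM in free cells. Its median ratio was 6.80 and 3.00, against 6.91 and 1.68 over all genes tested. Jund had ratios of 0.328 and 1.66, Jun 1.67 and 3.20 and Klf6 1.48 and 2.80. NF-kB targets and cytokines had 1 of 16 higher (Cd83) and 0 lower, with a summed 1737 and 1572 CPM against 661 and 620 CPM and a median ratio of 9.39 and 3.45. Their 4 members with the most UMIs had ratios of 1.19 and 1.13 (Nfkb1), 0.833 and 0.711 (Nfkbia), 2.69 and 0.478 (Il1a) and, for Icam1, 0 vehicle UMIs and 3.28 in FGF21.

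Heat shock and dissociation genes had 2 of 14 higher (Dnajb1, Hsp90aa1) and 0 lower, beside 2.37% and 0.232% of all genes tested. They summed to 7210 and 5875 CPM against 5200 and 4306 CPM, with a median ratio of 2.48 and 1.33. Hspa8 was at 1.30 and 0.960, Hspa5 at 1.48 and 2.33 and Hsp90ab1 at 1.48 and 1.20. These genes can be induced while tissue is digested, and their part in the Ccl3 and Ccl4 values was not tested. Damage-associated microglia genes had 1 of 14 higher (Cd9), with 7123 and 14337 CPM against 6360 and 6351 CPM and a median ratio of 2.46 and 3.46. Within it Ctsb, a lysosomal protease, was at 1.12 and 3.53, Apoe at 1.19 and 1.17, Tyrobp at 0.939 and 1.24 and Trem2 at 0.668 and 0.883. Of the 244 FGF21 Ctsb UMIs, 153 came from 1 rich cell, and the other cells had 26, 28, 26 and 11. That cell thus weighs on the Ctsb ratio and on the summed FGF21 level of the list. Interferon response genes had 0 of 6 higher or lower (86.9 and 266 CPM against 147 and 141 CPM, median ratio 20.4 and 2.83), with Bst2 at 1.70 and 3.87. Homeostatic genes with many UMIs included Csf1r at 0.801 and 0.693, P2ry12 at 0.835 and 0.360 and Sparc at 1.24 and 0.607.

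Between the libraries, 3 classes had at least 50 cells in each, and a gene with at least 50 UMIs over both was called when its ratio of FGF21 to vehicle was at least 2 or at most 0.5. The microglia-like class consisted of 1 cluster with 1395 vehicle and 22 FGF21 cells and another with 10 and 865, so the libraries hardly share a cluster there. Of the 7 genes with enough UMIs in microglia-like cells, Ccl4 and Cxcl14 were called higher in FGF21 and 0 lower, where 4.22% of 11359 genes were called higher and 1.25% lower. The median log2 ratio was -0.06 over the 7 and 0.03 over all genes.

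The Ccl4 ratio in microglia-like cells was 3.26 (2.26 to 4.80). The Ccl3 ratio was 0.958 (0.686 to 1.33), an interval that does not meet that of Ccl4. Without the 2 and 5 rich cells, Ccl4 was at 4.66 and 9.85 CPM, a ratio of 2.11 (1.31 to 3.49), and Ccl3 at 11.6 and 6.75 CPM, a ratio of 0.583 (0.380 to 0.884). These 7 cells thus carried a large part of both values.

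Cx3cl1 and Cxcl12 in microglia-like cells, both mostly background, had ratios of 1.09 (0.606 to 1.97) and 0.604 (0.345 to 1.03). The Cxcl14 ratio in microglia-like cells was 2.93 (2.38 to 3.63), on UMIs that were mostly background. The level of Cxcl14 in all used cells was 57.5 CPM in vehicle and 139 CPM in FGF21, and the FGF21 library held 192 astrocyte-like and 615 precursor-like cells against 99 and 408. Background set from those levels was itself 2.69-fold apart between the libraries. With that background subtracted the microglial ratio was 3.70, a value without an interval that depends on the share used. The share was 28.2% in vehicle and 31.3% in FGF21. Astrocyte markers alone gave 39.8% and 35.6% in microglia-like cells, and the ratio at those shares was not computed.

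In precursor-like cells 3 of the genes had enough UMIs and 0 were called, where 1.24% of 11627 genes were called higher and 1.03% lower. Cxcl14 was at a ratio of 1.64 (1.41 to 1.91), or 1.36 with background subtracted. The libraries' precursor-like cells lay mostly in different clusters, 1 with 347 vehicle and 75 FGF21 cells and another with 23 and 502. Within these Cxcl14 was at 88.9 (77.0 to 102) against 110.2 CPM (78.3 to 151) and at 106 (63.9 to 166) against 139.5 CPM (129 to 151), and the intervals of the libraries overlapped in both. In the remaining cluster, of 38 and 38 cells, they did not, at 13.6 (5.0 to 29.7) against 60.7 CPM (43.6 to 82.4) on 6 and 41 UMIs. Cx3cl1 was at 1.11 (0.875 to 1.42), an interval that holds 1. Ccl2 had too few UMIs for a ratio in any compared class. In astrocyte-like cells 2 genes were counted and 0 called, where 3.59% of 6128 genes were called higher and 1.37% lower. Cxcl14 was at 1.18 (1.01 to 1.38) there. Cx3cr1 and Ccl12 in microglia-like cells were at 0.921 (0.908 to 0.933) and 0.872 (0.703 to 1.08). The fractalkine pair, Ccl3 and Ccl12 therefore stayed within 2-fold between the libraries in the classes where they were highest and could be compared.

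**Figure D5:**
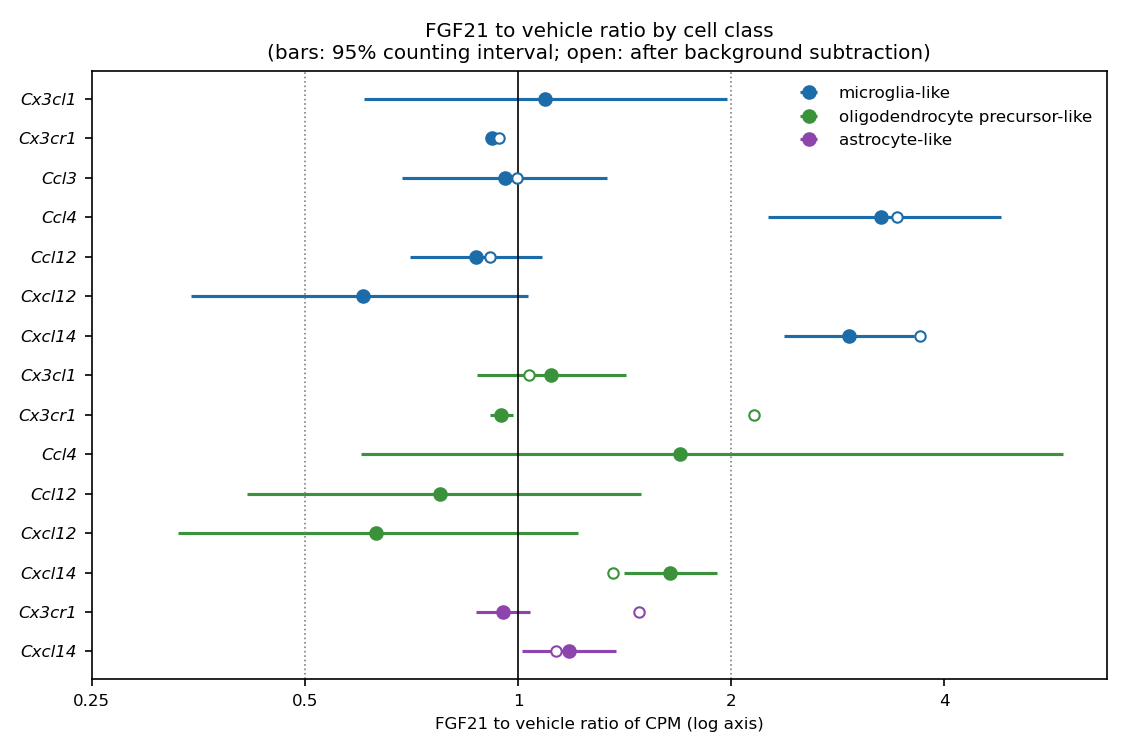
Ratio of FGF21 to vehicle level (log axis) of each gene with at least 20 UMIs in microglia-like (blue), oligodendrocyte precursor-like (green) and astrocyte-like (purple) cells, with 95% counting intervals as bars. Open points are ratios after background subtraction, and dotted lines mark 2-fold; Ccl4 and Cxcl14 in microglia-like cells lie above 2.

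The wider chemokine system was sparsely detected. Of 38 listed ligands, 14 had at least 50 UMIs over both libraries, 20 had fewer and 4 had 0, and of 24 receptors the counts were 10, 12 and 2. Besides the 8 genes, border macrophage-like cells led for Pf4 (1128 and 628 CPM), Ccl6 (327 and 334 CPM), Ccl24 (104 and 98.1 CPM) and the receptor Ccr1 (160 and 157 CPM). Ccl9 led in border macrophage-like cells in vehicle (285 CPM) and in microglia-like cells in FGF21 (129 CPM), with a microglial ratio of 0.730 (0.662 to 0.804). Cxcl16, a membrane-bound ligand, was at 45.0 and 38.0 CPM in microglia-like cells, and its highest level was in border macrophage-like cells in vehicle (55.7 CPM) and fibroblast-like cells in FGF21 (178 CPM on 7 UMIs). Ccrl2, which presents chemerin, led in mural-like cells (63.2 and 95.7 CPM).

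Some listed genes led in a class on a few cells. Ccl5 led in T or NK cell-like cells, with 2 vehicle UMIs and 113 FGF21 UMIs, of which 82 were in 1 cell. Ccr2, the receptor of Ccl2 and Ccl12, had 10 UMIs in 2 of 4 vehicle T or NK cell-like cells and 35 in 2 of 23 FGF21 border macrophage-like cells, 28 of them in 1 cell. Cxcr2 was found in 1 border macrophage-like cell of each library, with 17 and 16 UMIs, and the highest level of Ackr1 in vehicle, in endothelial-like cells, came from 12 UMIs in 1 cell. Ccr3 had 4 UMIs in 1 vehicle T or NK cell-like cell and 1 in FGF21. The highest class of Ccl25 and Ccl27a rested on at most 6 UMIs in each library. More UMIs of these genes lay in precursor-like cells, with 48 and 107 for Ackr1 (16.7 and 18.5 CPM), 32 and 69 for Ccl25 and 37 and 105 for Ccl27a (12.8 and 18.2 CPM), and background at 13.5% to 24.9%. Ccl27a has near-identical gene copies among which reads could be split.

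Over 14 points, 7 classes in 2 libraries, the genes most alike in log2(CPM + 1) were taken from 12394 genes by Pearson r, as a description of points that share libraries and depth. Among the genes most like Cx3cr1 were Tgfbr1 (0.984) and Ivns1abp (0.983). Cx3cl1 was most like Ccdc92b (0.986), Tmem17 and Rab9b, and Cxcl14 most like Sfxn5 (0.952), Pfkm and Rasa2. Ccl12 was nearest to Epsti1 (0.947), Arhgap19 and Phf11b, and Cxcl12 to Foxf2 (0.95), Adora2a and Ctgf. For the sparse genes the nearest were F13a1, Retnlg and Clec10a (Ccl2), Slc10a3, Parp10 and Cyba (Ccl3) and Siglecf, Tha1 and Espl1 (Ccl4), and Ccl2 had only 36 UMIs.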

How the data were processed

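Each library's table holds whole-number UMI counts per cell and gene that the files' own labelling calls RSEC-corrected (error correction by the instrument maker's software), and the file headers name BD WTA Rhapsody Analysis Pipeline version 1.9.1; GRCm38 is the build, per the submitters' processing notes. For the aligner, annotation and cell calling, details were not given in the sources used here. The deposited counts were used as they are.

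Cells with at least 500 UMIs, 300 genes and at most 25% mitochondrially encoded UMIs were kept (2354 vehicle, 1951 FGF21), and 17 and 16 doublets called by Scrublet (0.767%) were removed. Clustering used scanpy 1.11.5 (2000 variable genes without chemokine or chemokine receptor genes, 30 principal components, 15 neighbours, Leiden resolution 1.0). A cluster was named when 3 or more fixed markers were in at least 10% of its cells and its marker score led by 0.5. Class levels are summed UMIs per 1000000 with exact Poisson intervals, shares have Clopper-Pearson intervals, and ratios have conditional binomial intervals (scipy 1.17.1). A fold against 0 used a floor of 3 UMIs. Methods were tested on simulated data.

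The genes, lists and rules were chosen with earlier results of these data known. Named are the 8 genes, other listed chemokines and receptors with at least 50 UMIs, the 3 genes most like each, the 10 highest and 6 lowest genes of rich cells, and the 4 members with most UMIs of each list. Some genes that this rule names are not reported here. The background share was the median, over marker lists and classes that should lack them, of the level there over the level in all used cells. Alternatives tried were other cell filters, clustering, denominators, thinning depths, limits for rich cells and background subtraction.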

Additional observations from a re-analysis of the deposited data

Results flagged for a closer look

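Cxcl14 was found outside the cells compared. In the 571 vehicle barcodes left out by the filters or as doublets it was at 93.1 CPM (69.3 to 122) on 51 UMIs, above the 57.5 CPM of the used vehicle cells. In the 504 FGF21 barcodes left out it was at 91.9 CPM (67.3 to 123) on 46 UMIs, below the 139 CPM of the used cells. The libraries' levels of this gene therefore lay close together in the barcodes left out and further apart in the used cells.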

How the results depend on the processing

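Of 316 values recomputed under other settings, 293 were labelled the same, 22 moved and 1 reversed. For levels, ratios and shares, the same means inside the counting interval of the main value. For the 16 counts of called genes, 14 of them labelled the same, it means only a count of similar size, whichever genes were called. Without mitochondrially encoded and ribosomal protein genes in the total, Cx3cr1 in microglia-like cells was at 8245 and 7734 CPM (ratio 0.938) and Cxcl14 in FGF21 astrocyte-like cells at 708 CPM. With background subtracted, the ratio of FGF21 to vehicle was 0.941 for Cx3cr1 and 3.70 for Cxcl14 in microglia-like cells and 1.36 for Cxcl14 in precursor-like cells. For Cx3cr1 in precursor-like cells it was 2.15 in place of 0.947, on a remainder of a gene that was mostly background there. Without rich cells, an alternative chosen after seeing the data, the Ccl3 ratio was 0.583 and the Ccl4 ratio 2.11. Ccl3 was in 0.864% and 0.794% of microglia-like cells thinned to 1000 UMIs and in 3.63% and 3.38% without thinning, Ccl4 in 5.41% of unthinned FGF21 cells, and both in 0.113% of FGF21 cells thinned to 1000. Thinning cells to 2000 UMIs before the comparison of rich and free cells gave 9 lower genes in place of 26, 2 of them shared, and 252 higher in place of 265, 64 of them shared, with 8915 genes tested. A limit of 2 UMIs for rich cells gave 266 higher genes, 116 of them shared, and 38 lower, 5 of them shared, and asking for 3 UMIs in the rich cells of each library (chosen after seeing the data) gave 53 higher genes in place of 265. Ccl12 in border macrophage-like cells was at 649 and 336 CPM (40 and 13 cells) with all genes allowed among the variable genes, and at 779 CPM in FGF21 cells with an Mrc1 UMI (added after seeing the data). At Leiden resolution 0.5 that class was not named and gave no value. No paired analysis was possible because each treatment has 1 library, and for the same reason no library could be left out. Ccl2 rested on 36 UMIs and the vehicle rich group on 2 cells.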
